A study of Mus musculus with 7 samples.

Results

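The genes described here make, remove or sense extracellular adenosine. They are adenosine deaminase (*Ada*), adenosine kinase (*Adk*), purine nucleoside phosphorylase (*Pnp*), the ectonucleotidases *Entpd1* (CD39) and *Nt5e* (CD73), the surface protease *Dpp4* (CD26), and the adenosine receptors *Adora1*, *Adora2a* and *Adora2b*. They were chosen by pathway and selected on the log2 ratios of *Ada*, which was among the genes that fell most in nasal tissue after exposure to diesel exhaust particles (DEPs), so the values of *Ada* are a description, without a test. On the array, 12 probes carry these 9 names, and 11 probes covering all 9 genes were bright enough to be tested, among 25124 tested probes of 39429. The RNA came from the nasal cavity of female BALB/c mice, 32 in the whole series, whose age is given as 6 weeks. Tissue was taken after exposure, so if this was the age at the start, the mice of 8 weeks were older at sampling. DEP-treated mice breathed 100 µg/m3 DEPs from an ultrasonic nebulizer for 1 hour a day on 5 days a week, during 4 or 8 weeks, and per the methods the controls breathed saline under the same conditions. Each array carried DEP RNA labelled with Cy5 and control RNA labelled with Cy3, with 4 arrays at 4 weeks and 3 arrays at 8 weeks, which the labels call biological replicates. How many mice stand behind each array was not given in the sources used here, nor whether arrays shared control RNA.

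Adenosine outside the cell arises when CD39 strips ATP and ADP down to AMP and CD73 converts AMP to adenosine. Adenosine deaminase turns it into inosine, purine nucleoside phosphorylase splits inosine to hypoxanthine, and adenosine kinase returns adenosine taken up by the cell to AMP. The receptor encoded by *Adora1* inhibits adenylyl cyclase, whereas the receptors encoded by *Adora2a* and *Adora2b* stimulate it. In airways and other barrier tissues this system is known for its part in inflammation, blood flow and secretion. The promoters of the pair of genes with the largest 4-week ratios in size, *Ada* and *Nt5e*, are shown because they stand at opposite ends of this route, one at the formation and the other at the removal of adenosine. The 250 bases upstream of the start are given 5′ to 3′ on the gene's strand from RefSeq, build GRCm38.p6, at chr2:163750240-163750489 (minus strand) for *Ada* and chr9:88327359-88327608 (plus strand) for *Nt5e*, with GC boxes (GGGCGG or CCGCCC) in capitals.
Ada: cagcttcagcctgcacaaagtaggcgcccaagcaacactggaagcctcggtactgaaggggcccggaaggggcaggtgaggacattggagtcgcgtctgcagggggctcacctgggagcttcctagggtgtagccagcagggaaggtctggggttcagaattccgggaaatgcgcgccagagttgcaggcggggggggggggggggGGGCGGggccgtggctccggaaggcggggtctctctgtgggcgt
Nt5e: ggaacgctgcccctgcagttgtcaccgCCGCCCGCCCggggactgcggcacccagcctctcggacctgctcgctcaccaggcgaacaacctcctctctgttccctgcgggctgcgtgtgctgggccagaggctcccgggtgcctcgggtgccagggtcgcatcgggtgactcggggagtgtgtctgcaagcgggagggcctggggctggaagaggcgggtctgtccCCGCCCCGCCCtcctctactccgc
The *Ada* stretch holds 1 GC box and the *Nt5e* stretch 4, counting overlapping matches, and 32.7% of 32851 promoter stretches of the same length hold at least 1. Their GC content was 67.2% and 72%, against a median of 52.4% over all promoters. Neither stretch holds the letters ACGTG or CACGT, a form of the core of the hypoxia response element, which 16.6% of all promoters hold. The form GCGTG, which the *Nt5e* stretch holds, was not counted. Neither stretch holds TGACG or CGTCA, the core of the cyclic AMP response element, which 17.8% hold. ACGTG and TGACG overlap where TGACGTG occurs. Promoter stretches were matched for 8 of the 9 genes.

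Per array, 18476 to 25062 probes stood well above background in the DEP channel, as did 16819 to 26920 in the control channel, and 0 spots were saturated. No array carried swapped dyes, so an effect of the dye cannot be told apart from an effect of DEP. Each exposure time has its own slide, so neither can be separated from the other and differences between 4 and 8 weeks cannot be told apart from differences between slides. The age of the mice at sampling, where it differed, cannot be separated from exposure time either. Log2 ratios over all tested probes correlated at 0.44 to 0.491 between arrays of 4 weeks, at 0.71 to 0.876 between arrays of 8 weeks, and at 0.0868 to 0.286 between arrays of the different times. The 10 markers of mature olfactory sensory neurons were all bright enough to be tested.

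*Ada* had the lowest ratio of the 9 genes at both times. Before any correction, the median spot intensity of *Ada* at 4 weeks was 262 to 312.5 in the DEP channel and 1682.5 to 1794.5 in the control channel. At 8 weeks these intensities were 249 to 290 with DEP and 1029 to 1081 in controls. After background correction and normalization, the ratio of DEP over control, on the log2 scale, was -2.38, -2.57, -2.51 and -2.46 on the 4 arrays of 4 weeks. Its mean was -2.48 ± 0.0826 (SD, n = 4), which is 5.58-fold lower or 82.1% less than in controls. On the arrays of 8 weeks the log2 ratio was -1.63, -1.47 and -1.51, with a mean of -1.54 ± 0.0794 (SD, n = 3), or 2.90-fold lower. All 7 arrays were below 0. The 8-week mean was nearer to 0 by 0.94 on the log2 scale. Every 8-week array lay above every 4-week array, as was the case for 21% of names with values on all 7 arrays. The genes were selected on the ratios of *Ada*, so nothing is read from these signs or from this gap.

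On the normalized scale, the DEP and control channels of *Ada* moved in opposite directions between the exposure times. On the log2 scale of single channels, normalized between arrays, the mean control level was 10.57 (range 10.48 to 10.61) at 4 weeks and 9.94 (range 9.90 to 9.98) at 8 weeks. The mean DEP level was 8.09 (range 8.03 to 8.15) at 4 weeks and 8.41 (range 8.33 to 8.47) at 8 weeks. Of the gap of 0.94 between the times, a fall of the control level by 0.63 and a rise of the DEP level by 0.32 each made a part. The rise is one of normalized levels, since before any correction the DEP intensity was 262 to 312.5 at 4 weeks and 249 to 290 at 8 weeks. By the brightest probes, the control level of *Adk*, *Pnp*, *Nt5e*, *Entpd1*, *Adora1* and *Adora2b* also fell, with differences from -0.67 to -0.17. That of *Dpp4* and *Adora2a* rose, by 0.10 and 0.57. Among 20636 gene names, *Ada* had the 4th lowest ratio at 4 weeks and the 52nd lowest at 8 weeks. By the 4-week ratio alone, the names below *Ada* were *Heatr5b* at -2.67, whose arrays ranged from -10.37 to -0.036, *BC037156* at -2.58 and *Sprr2d* at -2.48, and the next above it were *Ambn* at -2.41 and *Idi2* at -2.31.

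**Figure D1:**
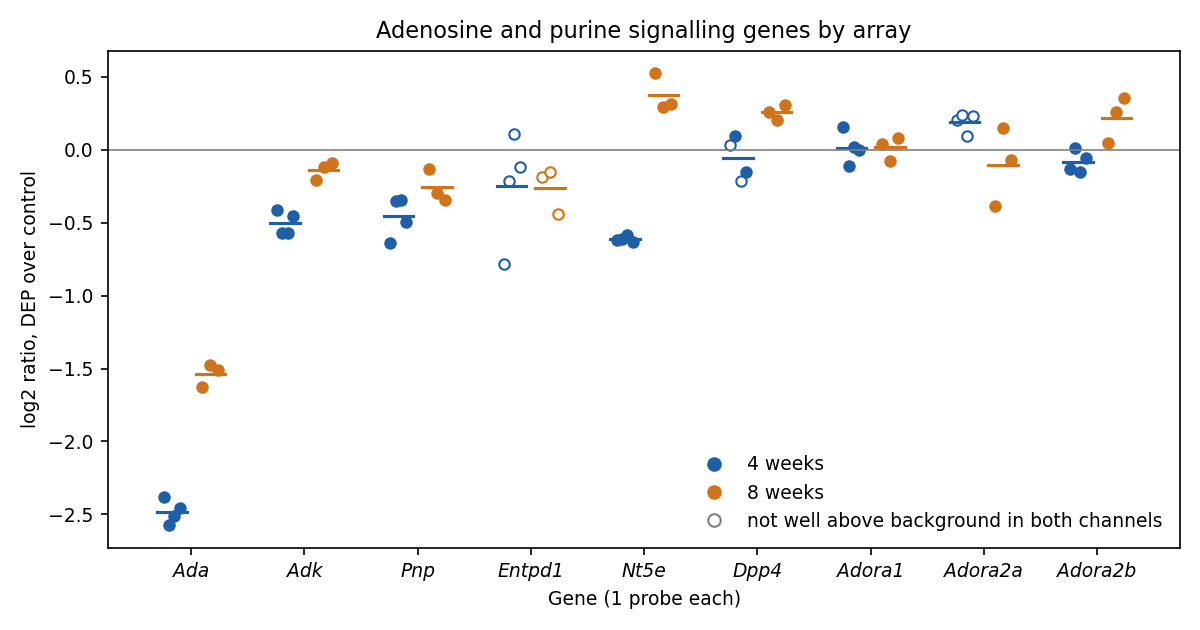
Log2 ratio of DEP over control (vertical axis) of each of the 9 genes (horizontal axis) on the 4 arrays of 4 weeks (blue) and the 3 arrays of 8 weeks (orange), 1 point per array, with lines at the means. Open points are arrays on which a channel was not well above background. *Ada* lies at -2.57 to -2.38 at 4 weeks and at -1.63 to -1.47 at 8 weeks, and *Nt5e* lies below 0 on every 4-week array and above 0 on every 8-week array.

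**Figure D2:**
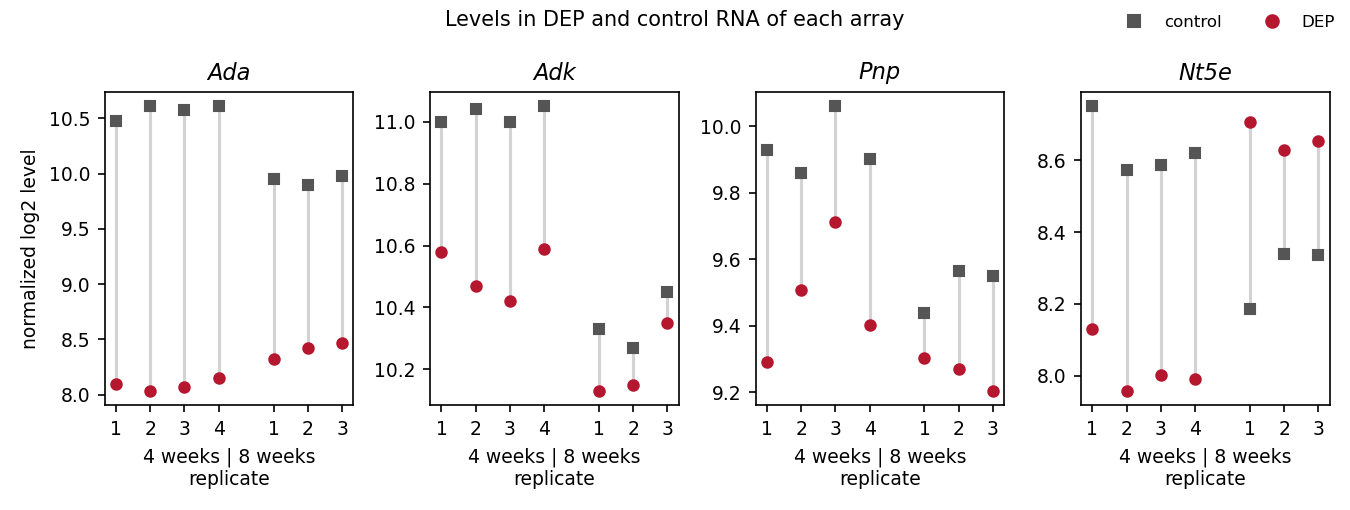
Normalized log2 level (vertical axis) of *Ada*, *Adk*, *Pnp* and *Nt5e* in the control RNA (grey squares) and the DEP RNA (red circles) of each array, with replicates of 4 weeks and then of 8 weeks along the horizontal axis and a grey line joining the channels of 1 array. Vertical axes differ between genes and do not start at 0. Mean *Ada* levels were 10.57 in controls and 8.09 with DEP at 4 weeks, and the *Nt5e* channels changed order between the times.

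Of the other 8 genes, 3 fell and 0 rose at 4 weeks, with a call in limma meaning that the p-value, adjusted by Benjamini-Hochberg across every probe tested, did not exceed 0.05. That is 37.5% of them, against 38.2% of all 20636 gene names, so the count did not stand apart from the arrays as a whole. Of all names, 16.5% were called lower and 21.7% higher. Of the calls over all names, 56.9% were higher with loess, 42.7% with median centring and 67.9% with the processed signals. None of the 8 genes reached the thresholds named in the methods, a change of 2-fold or more with an unadjusted p up to 0.01, which 1.3% of all names did. *Adora2a*, at an adjusted p of 0.1 here, was called higher with an offset of 0, with the processed signals and with only the 4-week arrays fitted, its control channels being below the background limit. Their median log2 ratio was -0.17, against 0.0021 over all names.

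*Adk* and *Pnp*, which encode enzymes next to adenosine deaminase in adenosine breakdown and reuse, fell at 4 weeks. *Adk* had log2 ratios of -0.41, -0.57, -0.57 and -0.45 at 4 weeks, with a mean of -0.50 ± 0.0831 (SD, n = 4) and an adjusted p of 0.00026 in limma, or 1.42-fold lower. All 4 arrays lay below 0. At 8 weeks the ratios of *Adk* were -0.21, -0.12 and -0.093, with a mean of -0.14 ± 0.0594 (SD, n = 3) and an adjusted p of 0.092, which did not pass. In limma it was called lower at 8 weeks with the processed signals (-0.25, adjusted p = 0.02) and with median centring (-0.47, adjusted p = 0.00048). A second, dimmer probe of *Adk* fell at 4 weeks by 0.58 on the log2 scale (adjusted p = 0.0017) and also at 8 weeks, by 0.34 (adjusted p = 0.027).

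*Pnp*, which acts on the inosine that adenosine deaminase releases, had log2 ratios of -0.64, -0.35, -0.35 and -0.50 at 4 weeks. Its mean was -0.46 ± 0.139 (SD, n = 4), or 1.37-fold lower, with an adjusted p of 0.0014 in limma. At 8 weeks the ratios were -0.13, -0.30 and -0.34, with a mean of -0.26 ± 0.110 (SD, n = 3) and an adjusted p of 0.03. All 7 arrays lay below 0. The call at 8 weeks was lost when replicate 2 or replicate 3 was left out (adjusted p of 0.14 and 0.13), without a filter on dim probes (adjusted p = 0.051) and with the unmoderated test of the methods (adjusted p = 0.16). Mouse carries a near-identical neighbour, *Pnp2*, whose own probe was too dim to be tested, so which copy the *Pnp* probe measured is uncertain. The second *Pnp* probe was too dim to be tested and was well above background in the control channel of 1 array only.

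*Nt5e*, the enzyme that releases adenosine from AMP, was lower with DEP at 4 weeks and higher at 8 weeks. Its log2 ratio at 4 weeks was -0.62, -0.62, -0.59 and -0.63, with a mean of -0.61 ± 0.0184 (SD, n = 4), an adjusted p of 0.00011 in limma and a 1.53-fold lower level. At 8 weeks it was 0.52, 0.29 and 0.32, with a mean of 0.38 ± 0.128 (SD, n = 3), an adjusted p of 0.0022 and a 1.30-fold higher level. The 2 sets of arrays lay on opposite sides of 0. On the single-channel log2 scale, the DEP level went from 8.02 to 8.66 between the times while the control level went from 8.63 to 8.29. With median centring in place of loess, the 8-week ratio of *Nt5e* was 0.13 (adjusted p = 0.2), and with the unmoderated test of the methods its adjusted p was 0.13. A fall at 4 weeks together with a rise at 8 weeks, both at an adjusted p of at most 0.05, was seen in 534 of all names, or 2.59%.

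*Entpd1*, which works one step upstream of *Nt5e*, was near the background. At 4 weeks its log2 ratio was -0.78, -0.22, 0.11 and -0.12, with a mean of -0.25 ± 0.379 (SD, n = 4) and an adjusted p of 0.17, and each channel was well above background on 2 of the 4 arrays. At 8 weeks no DEP channel was well above background, against 2 of 3 control channels, and the ratio gave no call (adjusted p = 0.22). A bound from the means alone put the DEP level 1.19-fold lower. It takes no account of the spread between arrays, so no fall is read from it. This bound, as for any gene dim in a whole group, sets the mean of the brighter channel against the higher of the dimmer probe's own level and the lowest level well above background on the array. The measured means were 6.18 with DEP and 6.44 in controls on the log2 scale.

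At 8 weeks, 3 of the 8 genes rose, namely *Nt5e*, *Dpp4* and *Adora2b*, and 1 fell, *Pnp*. These are 50% of the 8 genes, against 37.4% of all names called at 8 weeks, with 20.4% called higher and 17% lower. Their median log2 ratio was -0.044, against 0.013 over all names. None passed the 2-fold threshold, which 2.95% of all names passed. The count of 4 fell to 1 without replicate 2 and to 1 without replicate 3, with *Nt5e* the gene left in both, and to 2 with median centring, where *Adk* and *Pnp* were lower and no gene was higher. Median centring put the median of all names at -0.11 at 8 weeks and moved the share of higher calls from 54.6% to 26.9%, so the 8-week directions are relative to that median.

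*Dpp4*, a surface peptidase whose human counterpart is known to bind adenosine deaminase, had log2 ratios of 0.26, 0.20 and 0.31 at 8 weeks. The mean was 0.26 ± 0.0524 (SD, n = 3), or 1.20-fold higher, with an adjusted p of 0.025. At 4 weeks the ratios of *Dpp4* were 0.033, 0.095, -0.22 and -0.15, on both sides of 0, with a mean of -0.060 ± 0.148 (SD, n = 4) and an adjusted p of 0.47. Leaving out any single array of 8 weeks ended the 8-week call, with adjusted p of 0.083 without replicate 1, 0.078 without replicate 2 and 0.11 without replicate 3, as did median centring (adjusted p = 0.14) and the unmoderated test of the methods (adjusted p = 0.091).

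Of the receptors, *Adora2b* rose at 8 weeks and *Adora1* gave no call at either time. *Adora2b*, which encodes a receptor that responds to high adenosine, had log2 ratios of 0.045, 0.26 and 0.35 at 8 weeks, with a mean of 0.22 ± 0.159 (SD, n = 3) and an adjusted p of 0.043. At 4 weeks the ratios were -0.13, 0.010, -0.15 and -0.054, with a mean of -0.082 ± 0.0741 (SD, n = 4) and an adjusted p of 0.32. A second probe of *Adora2b* gave 0.58, 0.41 and 0.48 at 8 weeks (mean 0.49, adjusted p = 0.038) and a mean of -0.086 at 4 weeks (adjusted p = 0.63). The call of the brighter probe was lost in 8 of 12 alternatives. They were the fits without replicate 2 or replicate 3 of 8 weeks (adjusted p of 0.18 and 0.2), with median centring (mean 0.044, adjusted p = 0.69), with the background fitted on all spots (adjusted p = 0.061), with an offset of 0 (adjusted p = 0.053), without a filter on dim probes (adjusted p = 0.07), with only the 8-week arrays (adjusted p = 0.061) and with the unmoderated test (adjusted p = 0.26).

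*Adora1*, the high-affinity inhibitory receptor, had log2 ratios of 0.15, -0.11, 0.019 and -0.0018 at 4 weeks and 0.042, -0.079 and 0.082 at 8 weeks. The means were 0.014 ± 0.109 (SD, n = 4; adjusted p = 0.86) and 0.015 ± 0.0836 (SD, n = 3; adjusted p = 0.89). *Adora2a*, the receptor known for restraining immune cells, was not well above background in any control channel at 4 weeks and was so in 2 of 4 DEP channels, so no fold is given. Its measured means there were 6.45 with DEP and 6.26 in controls on the log2 scale. At 8 weeks the ratios of *Adora2a* were -0.39, 0.15 and -0.073, with a mean of -0.10 ± 0.270 (SD, n = 3) and an adjusted p of 0.44.

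The ratio of DEP over control was higher at 8 than at 4 weeks in 4 of the 8 genes and lower in 0, by the test of the difference itself. The 4 genes are *Nt5e*, *Adk*, *Dpp4* and *Adora2b*, or 50%, against 31% of all names called in either direction with 14.9% called higher and 16.2% lower. *Nt5e* moved by 0.99 (SE 0.0779, adjusted p = 0.00014), *Adk* by 0.36 (SE 0.0751, adjusted p = 0.0097), *Dpp4* by 0.32 (adjusted p = 0.038) and *Adora2b* by 0.30 (adjusted p = 0.043) on the log2 scale. The second probes of *Adk* and *Adora2b* did not pass, with adjusted p of 0.21 and 0.064. *Pnp* moved by 0.20 (adjusted p = 0.17) and *Adora1* by 0.00092 (adjusted p = 0.99). The 8-week ratios of *Nt5e* lay above all its 4-week ratios, as was the case for 21% of names with values on all 7 arrays. The difference of *Nt5e* passed in each of 16 alternative fits, with adjusted p of 3.6e-05 to 0.011, whereas that of *Adk* was lost with median centring and with the replicate number as a block (up to an adjusted p of 0.18), that of *Dpp4* in 11 of 15 fits and that of *Adora2b* in 12 of 16. The count of 4 fell to 2 without replicate 3 or 4 of 4 weeks and without replicate 3 of 8 weeks.

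The genes whose log2 ratios were nearest to those of *Ada* over the 7 arrays, by the root mean square difference, were *BC037156* (0.21), *Sprr2d* (0.24), *Dynap* (0.37), *S100a9* (0.62) and *U90926* (0.65). *Sprr2d* encodes a small proline-rich protein of the cornified envelope, and its mean ratio was -2.48 at 4 weeks and -1.84 at 8 weeks. *S100a9* encodes a calcium-binding protein abundant in neutrophils, and its mean ratio was -1.71 at 4 weeks and -1.80 at 8 weeks. *BC037156* was at -2.58 and -1.66, *Dynap* at -2.11 and -1.21, and *U90926* at -1.67 and -1.33. The 7 arrays share 2 slides, and likeness here is a description of these arrays.

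Other purine genes moved in both directions. Of 74 further genes for receptors, nucleotidases, transporters and salvage enzymes, 62 were bright enough to be tested. At 4 weeks 11 rose and 12 fell, and their median log2 ratio was -0.037. At 8 weeks 9 rose and 14 fell, with a median of -0.039. These are counts near those of all names, of which 38.2% were called at 4 weeks and 37.4% at 8 weeks. With median centring the split was 6 higher and 16 lower at 4 weeks and 3 higher and 25 lower at 8 weeks. The 4-week count of 23 fell to 15, 13 and 13 without replicates 2, 3 and 4 of 4 weeks, and the 8-week count of 23 fell to 10 and 13 without replicates 2 and 3 of 8 weeks.

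Of 10 other purine receptors tested, 1 rose and 1 fell at 4 weeks, and 2 rose and 1 fell at 8 weeks. *P2ry6*, the receptor for UDP, was lower at 4 weeks with a log2 ratio of -0.35 (adjusted p = 0.0021). *P2ry2*, the receptor for ATP and UTP that drives airway secretion, was at 0.22 at 4 weeks (adjusted p = 0.014) and at -0.40 at 8 weeks (adjusted p = 0.0021). The ATP-gated channels *P2rx3* of sensory neurons and *P2rx1* rose at 8 weeks, to log2 ratios of 0.54 (adjusted p = 0.011) and 0.47 (adjusted p = 0.0047). *Adora3*, the remaining adenosine receptor, was too dim to be tested.

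Of 17 nucleotidases tested, 4 rose and 4 fell at 4 weeks, and 3 rose and 4 fell at 8 weeks. *Alpl*, the tissue-nonspecific alkaline phosphatase that can also release adenosine from AMP, fell at 4 weeks and rose at 8 weeks, with a mean of -0.44 ± 0.160 (SD, n = 4) on the log2 scale at 4 weeks (adjusted p = 0.0032) and of 0.29 ± 0.147 (SD, n = 3) at 8 weeks (adjusted p = 0.029). *Enpp2* (autotaxin) did the same, at -0.23 (adjusted p = 0.038) and 0.67 (adjusted p = 0.00063). Among relatives of *Entpd1*, *Entpd5* and *Entpd4* of the secretory pathway rose at 4 weeks, to 0.35 (adjusted p = 0.0012) and 0.31 (adjusted p = 0.0018). *Entpd2*, a surface enzyme, was at -0.15 at 4 weeks (adjusted p = 0.051) and fell at 8 weeks, to -0.36 (adjusted p = 0.0025). *Entpd3* was at -0.21 (adjusted p = 0.038) at 4 weeks and at 0.23 (adjusted p = 0.047) at 8 weeks. *Enpp1* was too dim to be tested.

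Of 10 transporters and ATP release channels tested, 2 rose and 3 fell at 4 weeks, and 1 rose and 2 fell at 8 weeks. *Slc29a1* (ENT1), which carries adenosine across the cell membrane, was at -0.15 at 4 weeks (adjusted p = 0.028) and at 0.063 at 8 weeks (adjusted p = 0.35). *Slc29a2* (ENT2) gave no call, at 0.063 (adjusted p = 0.44) and -0.20 (adjusted p = 0.06).

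Of 25 salvage and breakdown enzymes tested, 4 rose and 4 fell at 4 weeks, and 3 rose and 7 fell at 8 weeks. *Impdh1*, which commits IMP to guanine nucleotides, turned from 0.54 ± 0.112 (SD, n = 4; adjusted p = 0.00028) at 4 weeks to -0.43 ± 0.0426 (SD, n = 3; adjusted p = 0.0014) at 8 weeks. *Gda*, which deaminates guanine, rose at 4 weeks, to 0.46 (adjusted p = 0.0012). The adenylate kinase *Ak1* was at 0.34 at 4 weeks (adjusted p = 0.0092) and at -0.38 at 8 weeks (adjusted p = 0.011). At 8 weeks *Ampd2*, which deaminates AMP, was at -0.58 (adjusted p = 0.0018), *Adsl*, which forms AMP, at -0.53 (adjusted p = 0.0007), and *Gmpr*, which turns GMP into IMP, at -0.51 (adjusted p = 0.012).

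Of the enzymes next to *Pnp*, *Hprt*, which salvages hypoxanthine, was at -0.031 at 4 weeks (adjusted p = 0.78) and rose at 8 weeks, to 0.39 (adjusted p = 0.011). *Xdh*, which oxidizes hypoxanthine to urate, was at 0.11 at 4 weeks (adjusted p = 0.43), where replicate 1 gave no usable spot and the fit used the other 3 arrays, and fell at 8 weeks, to -0.36 (adjusted p = 0.037). *Adal*, a relative of *Ada*, was at -0.010 (adjusted p = 0.92) and 0.13 (adjusted p = 0.26).

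**Figure D3:**
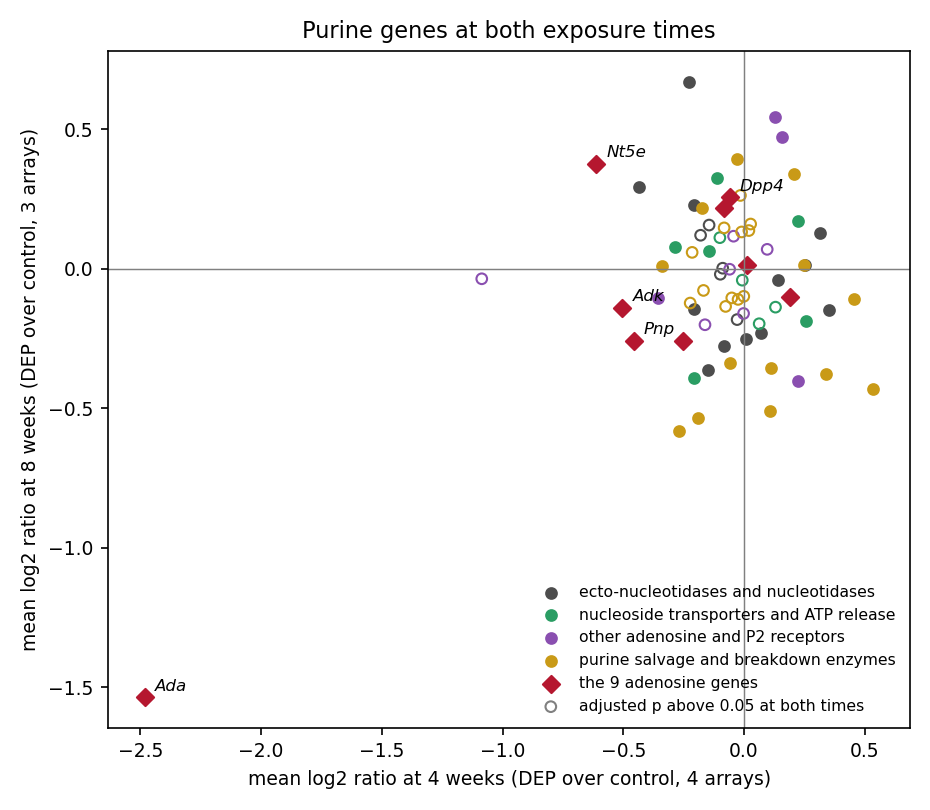
Mean log2 ratio of DEP over control at 4 weeks (horizontal axis) against 8 weeks (vertical axis) for the 9 adenosine genes (red diamonds) and 62 further purine genes (circles coloured by kind). Circles are filled where the adjusted p was at most 0.05 at either time. Diamonds are filled whatever the adjusted p, and *Ada* was not tested. *Ada* lies alone at -2.48 and -1.54, while *Nt5e* at -0.61 and 0.38 lies on the upper left, with a fall at 4 weeks and a rise at 8 weeks. The open circle at -1.09 on the horizontal axis is *P2ry1*, and the diamonds of *Entpd1* and *Adora2a* each rest on a channel not well above background at 1 of the times.

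Markers of several cell types moved on the same arrays. The RNA came from whole tissue, in which fewer cells of a type and less RNA per cell cannot be told apart. Of 17 markers of squamous epithelium, a tissue in which *Ada* is known to be abundant, 16 fell and 0 rose at 4 weeks, with array medians from -1.07 to -0.69. Their summed level was 10595 to 11879 intensity units with DEP and 19962 to 22187 in controls. *Sprr2d* was at -2.48 and *Krt13*, a keratin of the suprabasal layers, at -1.27. At 8 weeks 9 of the 17 fell and 3 rose, and the sums were 9993 to 10476 with DEP and 15593 to 16128 in controls. *Sprr2d* was then at -1.84 and *Krt13* at -0.21 (adjusted p = 0.075). The 3 that rose were *Sbsn* at 0.55, *Krtdap* at 0.36 and *Sprr1b* at 0.19, after -0.68, -1.10 and -1.27 at 4 weeks. The part of the squamous markers in the fall of *Ada* was not tested.

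Of 8 tooth matrix genes, whose products build enamel and dentin, 7 fell and 0 rose at 4 weeks, and 8 rose and 0 fell at 8 weeks. Their sums at 4 weeks were 5563 to 6181 with DEP and 16550 to 17907 in controls, and at 8 weeks 80695 to 104570 with DEP and 45891 to 46651 in controls. *Ambn* was at -2.41 and 1.52 and *Amelx* at -1.48 and 0.79 at the 2 times. *Nt5e*, *Alpl*, *Enpp2* and *Entpd3* had the same pair of signs. So did 534 of all names (2.59%), called at both times, among them *Cd5* of the T cell list and *Krtdap* of the squamous list. The part of the tooth matrix genes in the results of the purine genes was not tested.

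Of 9 neutrophil markers tested out of 12, 6 fell and 1 rose at 4 weeks, and 6 fell and 2 rose at 8 weeks. Their sums were 35707 to 43269 with DEP and 37412 to 38234 in controls at 4 weeks, and 42029 to 47179 and 39368 to 41345 at 8 weeks. A sum rests most on the brightest genes of a list, so these sums need not follow the counts, and nothing is read from them. *S100a9* was at -1.71 and -1.80, while *Csf3r*, the receptor for granulocyte colony-stimulating factor, was at 1.28 and 1.07. *Ltf* was at 0.19 at 4 weeks (adjusted p = 0.15) and rose at 8 weeks, to 0.36 (adjusted p = 0.03). Of 10 T cell markers tested out of 12, a cell type in which *Ada* and *Dpp4* are also known to be expressed, 1 rose and 2 fell at 4 weeks and 4 rose and 0 fell at 8 weeks. *Cd5* was at -0.43 at 4 weeks and 0.68 at 8 weeks. The T cell sums were 3157 to 3367 with DEP and 2987 to 16022 in controls at 4 weeks, where the highest control sum rests on *Lck* on replicate 2 (13192 of that sum, against 122 to 149 on the other arrays), and without *Lck* the control sums were 2830 to 3015. At 8 weeks they were 2990 to 4212 with DEP and 2692 to 2856 in controls. The part of either cell type in the adenosine genes was not tested.

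Of 9 macrophage markers tested out of 10, 1 rose and 2 fell at 4 weeks and 2 rose and 1 fell at 8 weeks, with *C1qa* at -0.41 and -0.45 and *Mrc1* at -0.32 and, with no call, 0.095 (adjusted p = 0.22). *C1qb* was at -0.011 at 4 weeks (adjusted p = 0.89) and rose at 8 weeks, to 0.63 (adjusted p = 0.00031). *Cx3cr1* rose at both times, to 0.20 (adjusted p = 0.044) and 0.28 (adjusted p = 0.023). The macrophage sums were 3010 to 3400 with DEP and 3176 to 3445 in controls at 4 weeks, and 3788 to 4429 and 3843 to 4275 at 8 weeks. Of 9 endothelial markers tested out of 10, cells in which *Nt5e* and *Entpd1* are also known to be expressed, 1 rose and 2 fell at 4 weeks and 1 rose and 0 fell at 8 weeks. *Emcn* fell at 4 weeks, to -0.35 (adjusted p = 0.017), as did *Cdh5*, to -0.30 (adjusted p = 0.013), while *Kdr* rose, to 0.48 (adjusted p = 0.047). At 8 weeks *Emcn* was at -0.26 (adjusted p = 0.082), *Cdh5* at 0.17 (adjusted p = 0.14) and *Kdr* at 0.43 (adjusted p = 0.11). The endothelial sums were 5765 to 6538 with DEP and 5269 to 5719 in controls at 4 weeks, and 5733 to 7936 and 5551 to 5784 at 8 weeks. Of the 10 olfactory neuron markers, 7 rose and 0 fell at 4 weeks and 0 rose and 9 fell at 8 weeks, with *Omp* at 0.89 and -0.43 and *Gnal* at 0.61 and -0.72. Their sums were 150777 to 165639 with DEP and 83644 to 98745 in controls at 4 weeks, and 98584 to 103021 and 137283 to 154020 at 8 weeks. The part of these cells in the adenosine genes was not tested. The squamous, tooth, neutrophil and olfactory lists kept the sign of their median at both times with median centring and with the processed signals. The sign of the median turned for the T cell list at 4 weeks and the macrophage list at 8 weeks with the processed signals, and for the endothelial list at 4 weeks with the processed signals and at 8 weeks with median centring.

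**Figure D4:**
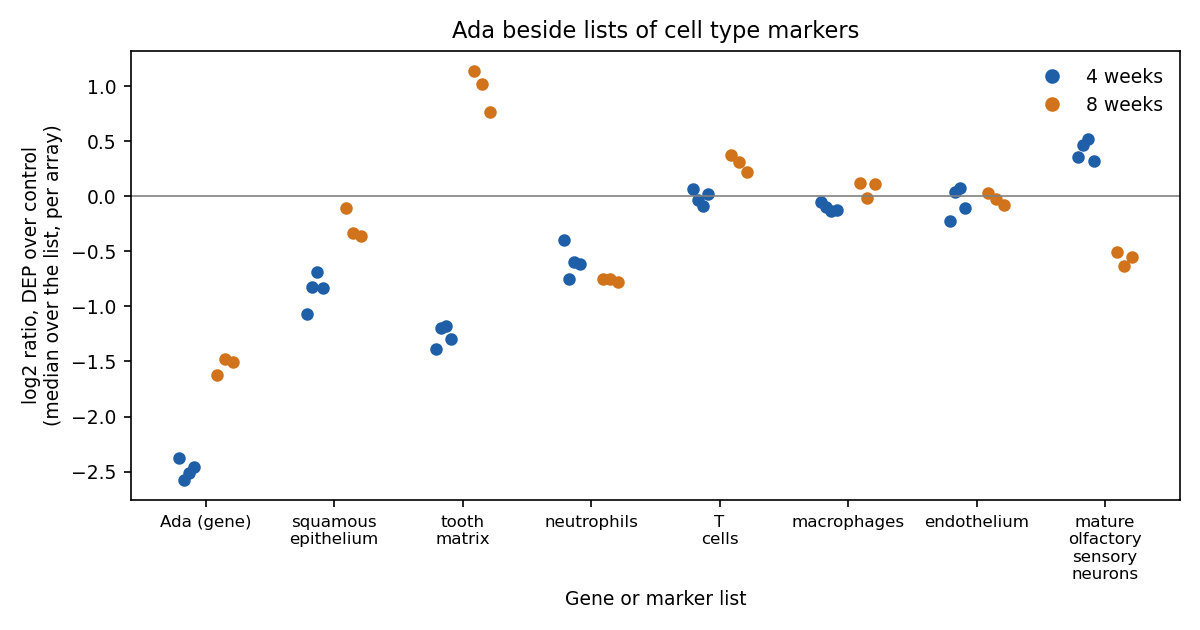
Log2 ratio of DEP over control (vertical axis) of *Ada* and the median over each list of cell type markers (horizontal axis), 1 point per array, for 4 weeks (blue) and 8 weeks (orange). The squamous list lies between -1.07 and -0.69 at 4 weeks and between -0.36 and -0.10 at 8 weeks, the tooth list changes side between the times, and *Ada* lies below every list on every array.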

How the data were processed

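Nasal RNA was compared on 7 Agilent mouse arrays of the 4x44K design, and groups and replicate numbers were taken from the sample labels. The authors deposited the output of Feature Extraction 10.10.1.1 for each array, with median intensity values of spots and local backgrounds that are not normalized, processed intensity values, and the log10 ratio of the processed Cy5 over the processed Cy3 signal. That deposited log10 ratio was not used beyond a check, in which it equalled the ratio of the processed signals (tolerance 0.001) on 66.3% to 86.7% of spots and was 0 on 13.4% to 33.8%. The GeneSpring normalization named in the methods is not part of these files and was not repeated.

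In limma 3.58.1 (R 4.3.3), median signals were background-corrected by normexp (offset 50), fitted without spots marked as background outliers and applied to all spots, and normalized within arrays by loess. Non-uniform spots, as marked by the scanner software, were dropped, and repeats of a probe were averaged. A probe was tested if 3 or more of the 7 arrays had it well above background with either dye. One mean per exposure time and their difference were fitted over all 7 arrays, with Benjamini-Hochberg adjustment over 25124 probes, and each gene took its brightest tested probe. Single-channel levels came from Aquantile normalization after loess. Of all probes, 28330 were named through RefSeq transcripts of GRCm38.p6. Steps were tested on simulated data. Precision is limited by the number of arrays.

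The members, the lists and the tests were chosen with earlier results of these data known. Named were all 9 members, of the 74 further purine genes the 8 with the largest ratio past the threshold at each time and those acting on the same steps as a member, the 5 genes nearest to *Ada*, its neighbours in rank, and 2 genes of each marker list. One gene that this rule names is not reported here. *P2ry1*, *Heatr5b* and *Cdh5* were named after their values were seen. So were marker genes beyond the 2 of a list, namely *Sbsn*, *Krtdap*, *Sprr1b*, *C1qb*, *Cx3cr1* and *Ltf*. *Ada* was not tested at either time. Alternatives varied the background fit, offset, starting signal, normalization, dim-probe filter, non-uniform spots, arrays fitted, test (the methods' t-test), left-out arrays and replicate block.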

Additional observations from a re-analysis of the deposited data

Results flagged for a closer look

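The ratio of DEP over control differed between 8 and 4 weeks, by limma's test of the difference, in 4 adenosine genes. On the log2 scale *Nt5e* moved by 0.99, *Adk* by 0.36, *Dpp4* by 0.32 and *Adora2b* by 0.30. Slides and age at sampling cannot be told apart from exposure times in these differences.

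Of the 22 further purine genes named, 12 also differed between the times, as did 31% of all names. Most of the 22 were named for a large ratio at 1 of the times, which favours a difference, so nothing is read from this count. The ratio was higher at 8 weeks by 0.90 in *Enpp2*, 0.73 in *Alpl*, 0.44 in *Entpd3*, 0.42 in *Hprt* and 0.21 in *Slc29a1*. The difference of 8 minus 4 weeks was -0.97 in *Impdh1*, -0.72 in *Ak1*, -0.63 in *P2ry2*, -0.62 in *Gmpr*, -0.56 in *Gda*, -0.50 in *Entpd5* and -0.34 in *Adsl*. Among marker genes it was 3.93 in *Ambn*, 2.27 in *Amelx*, 1.11 in *Cd5*, 1.06 in *Krt13*, 0.64 in *Sprr2d*, 0.47 in *Cdh5*, 0.42 in *Mrc1* and -1.32 in both *Omp* and *Gnal*. It was also 1.465 in *Sprr1b*, 1.462 in *Krtdap*, 1.23 in *Sbsn* and 0.64 in *C1qb*.

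On single arrays of 4 weeks, 8 of 47 sets of ratios held an array far from the others, where chance gives about 1 in 20. Sets held 4 ratios, except that of *Xdh*, which held too few to be screened. Many of the 47 sets were named for large ratios, and *P2ry1* after its values were seen. Nothing is therefore read from this count. The second probe of *Adora2b* was at -0.67 on replicate 3, against 0.053 to 0.19 on the others. *P2ry1*, the ADP receptor, was at -3.64 on replicate 1, against -0.29 to -0.16 on the others, and gave no call. *Gda* was at 0.67, *Entpd5* at 0.48 and *Ak1* at 0.058 on replicate 1. *Lck* was at -6.83 on replicate 2, *Emcn* at -0.70 on replicate 4 and *Sprr2d* at -2.26 on replicate 1.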

How the results depend on the processing

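Of 291 single-gene values under the alternatives, 223 kept their direction and side of the threshold or moved by less than the SD, 44 lost their call, 2 gained one, 7 moved by more than the SD and 15 changed sign. Left out of the 291 were *Adora2a* at 4 weeks, *Entpd1* at 8 weeks and the differences of *Ada*, *Adora2a* and *Entpd1* between the times. *Ada* stayed between -2.83 and -2.16 at 4 weeks and between -1.90 and -1.49 at 8 weeks. At 4 weeks *Adk*, *Pnp* and *Nt5e* were called in all 13 alternatives, with 3 genes called whichever array was left out. *Adora2a* was called higher as well in 3 of the 13. *Entpd1* was called lower at 8 weeks with only the 8-week arrays fitted. The difference of *Adora2a* between the times was called lower without replicate 2 of 8 weeks. At 8 weeks the count of 4 genes became 5 with the processed signals, where *Adk* was called lower as well. It became 2 with median centring, 2 without a filter on dim probes and 0 with the methods' t-test, which called 2 genes at an unadjusted p under 0.05. With an array left out it was 1 to 3. The count of 4 genes that differed between the times became 2 with an offset of 0, 1 with median centring, 2 without the filter, 2 with the methods' t-test and 2 to 3 with an array left out. Same-numbered arrays of the 2 times deviated together by correlations of -0.0071 to 0.016, so the numbers do not pair them. With the replicate block 1 gene differed, *Nt5e*. At the thresholds of the methods, the methods' t-test called 0 of the 8 genes at each time, and after Benjamini-Hochberg adjustment it called 3 at 4 weeks, 0 at 8 weeks and 2 between the times. Of the further purine genes, 23 at 4 weeks became 10 with the background fitted on all spots, 10 with the methods' t-test and 13 to 23 with an array left out. The 23 at 8 weeks became 1 with that t-test and 10 to 18 with an array left out.

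The changes of sign were in values that passed no test. *Dpp4* at 4 weeks was 0.16 with the processed signals. *Adora1* was -0.050 at 4 weeks and -0.10 at 8 weeks with median centring, and ran from -0.032 to 0.057 and from -0.018 to 0.062 with an array left out. *Adora2a* at 8 weeks ran from -0.23 to 0.039 with an array left out. The difference of *Adora1* between the times was -0.021 with the background fitted on all spots, -0.014 with an offset of 0, -0.088 with the processed signals, -0.053 with median centring, -0.0044 with the replicate block and -0.042 to 0.048 with an array left out. The cause was not tested. *Entpd1*, *Adora2a* and *Dpp4* lay close to the background, which limits their ratios.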
